A study of Citrullus lanatus with 36 samples.

Results

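The expression table of this study holds 1889 loci that are transcribed in melon flesh but lie outside the gene annotation. They were taken by their identifier alone, which is a running number in place of a melon gene identifier, and they make up 1889 of the 25121 features in the table. Loci of this kind appear when reads are assembled into transcripts without regard to known gene models. They can be genes that the annotation missed, ends of known genes, non-coding RNAs or copies of mobile elements. A large part of any plant genome consists of mobile elements. Retrotransposons such as the Ty3-gypsy and copia families move through an RNA copy that is made into DNA again, whereas DNA transposons such as the CACTA and MuDR families are cut out and moved by a transposase. Most copies are kept silent by DNA methylation and closed chromatin, and in tomato fruit DNA methylation is known to fall as the fruit ripens.

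Flesh was sequenced from 3 genotypes of oriental melon. WT is the inbred line BY9H, *Cmnor* is homozygous for a short CRISPR/Cas9 deletion in the NAC domain of *CmNOR*, a transcription factor gene of fruit ripening, and *CmNOR/Cmnor* is the heterozygous F1 of *Cmnor* and BY9H, so that both mutant groups rest on 1 edited line. Fruits came from the vine 33, 36 or 39 d after pollination (DAP), or were picked at 36 DAP and stored for 6 d at 20°C, and each of the 12 groups has 3 replicate libraries. Nothing says that these came from separate plants, so the tests measure the spread between libraries. The sample labels name watermelon as the organism, whereas the gene identifiers and the study's methods are those of melon. The level of *CmNOR* itself was not used to check the genotypes, as the sources used here do not name its identifier.

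Levels are FPKM, fragment counts scaled for the length of the transcript and the depth of the library. For the 1023 loci without a strand, FPKM times the span of the locus gave whole fragments in all 25910 values above 0 (tolerance 0.1 fragment), and the depth that follows is 17.8 to 36.9 M fragments per library. One fragment in a transcript of 1 kb was thus worth 0.0271 to 0.0563 FPKM. Replicate 2 of *CmNOR/Cmnor* and replicate 2 of *Cmnor* at 33 DAP stand apart from the other libraries of their groups. On the main scale, counts of loci called in a single comparison that uses these groups are also given without them. Counts that combine several comparisons are not. Markers of green tissue and phloem differed between *Cmnor* and the other genotypes without overlap within each stage, while the direction for those of seed changed with stage. The summed level of 18 green tissue genes was 9768 to 23768 FPKM in WT and *CmNOR/Cmnor* and 438.4 to 1204 FPKM in *Cmnor*, while 50 phloem genes summed to 449.4 to 3530 FPKM in WT and *CmNOR/Cmnor* and to 3131 to 12170.3 FPKM in *Cmnor*. The 21 seed genes summed to 154.4 to 293.4 FPKM in WT and *CmNOR/Cmnor* and to 194.8 to 296.2 FPKM in *Cmnor*. In storage alone *Cmnor* was higher, with 283.2 to 296.2 FPKM against 179.9 to 224 FPKM. The 6 genes of ripening flesh summed to 617.5 to 2543 FPKM in WT and *CmNOR/Cmnor* and to 60.56 to 144.3 FPKM in *Cmnor*. The part of these tissues in the differences between genotypes below was not tested, and in such bulk samples fewer cells of a type and less RNA per cell cannot be told apart.

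The loci were unevenly placed. Of the 1889 loci 765 (40.5%) lay on chromosome 00, the pool of sequence that the genome assembly could not place, which carries 4.6% of the annotated genes. The 12 placed chromosomes held 69 to 108 loci each. The loci were short, with a median span of 726 bp (201 to 76009 bp) against 2960 bp for annotated genes. A strand was given for 866 loci, with a median span of 1551.5 bp, while the 1023 loci without one had a median of 425 bp. A strand is usually read from splice sites, and for 784 stranded loci the steps of the FPKM values also gave the exonic length. It was shorter than the span in 672 (85.7%) of them, with a median of 811 bp in a median span of 1571 bp, so most stranded loci were spliced.

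Few of the loci touched a known gene, which follows from their being loci outside the annotation and is no result about them. Just 1 overlapped an annotated gene, 173 (9.2%) lay within 1 kb of one, 524 (27.7%) at 1 to 5 kb and 1191 (63.0%) beyond 5 kb. The median distance to the nearest gene was 5210 bp on the placed chromosomes and 15213 bp on chromosome 00. Of the loci, 165 (8.7%) lay within 1 kb of another such locus and may be pieces of 1 transcript.

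By description, 1379 loci (73.0%) had a match in the protein database used by the authors, against 94.8% of the annotated genes, and 24.7% had a Pfam domain against 76.2%. Of these matches 1140 were to melon itself. Words for mobile elements (transposon, transposase, gag, pol, copia and the like) appeared in the descriptions of 480 loci, against 754 of the 23232 annotated genes. Words for an uncharacterized or hypothetical protein appeared in the descriptions of 611 loci, and 504 had no description. Among the described loci, 50 matched transcription factors, 32 kinases, 14 ribosomal proteins, 13 heat shock proteins and 10 defence proteins. These classes rest on words in the descriptions and may overlap.

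The loci were weakly transcribed. Their median over the mean FPKM of 36 libraries was 0.583, against 4.07 for the annotated genes, and 688 (36.4%) reached a mean of 1 FPKM. Fragments were found in every library for 594 loci and in none for 3, which leaves 1886 for testing, and 1287 reached 1 FPKM in at least 3 libraries. Together the loci took 1.90% to 2.87% of the summed FPKM of a library. The number at 1 FPKM or more changed with stage. It was 487 to 536 in WT at 33 DAP and 495 to 536 at 36 DAP, then 681 to 691 at 39 DAP and 690 to 739 after storage, so that neither late group overlapped an early one. In *CmNOR/Cmnor* it was 535 to 572 at 36 DAP, 552 to 648 at 39 DAP and 650 to 756 after storage. *Cmnor* followed another course, with 625 to 655 loci at 36 DAP, 553 to 560 at 39 DAP and 653 to 739 after storage. At 33 DAP the library that stands apart had the most, with 641 loci against 475 and 445 in *CmNOR/Cmnor* and 798 against 610 and 638 in *Cmnor*. Of the 23232 annotated genes, 13056 to 13268 were at 1 FPKM or more in WT at 33 DAP and 12721 to 13097 at 36 DAP. In WT they numbered 13114 to 13271 at 39 DAP and 12933 to 13173 after storage. In *CmNOR/Cmnor* they numbered 12928 to 13033, 12803 to 13186 and 12728 to 12881 from 36 DAP to storage. In *Cmnor* they numbered 14916 to 15061, 14683 to 14855 and 14847 to 15069.

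**Figure D1:**
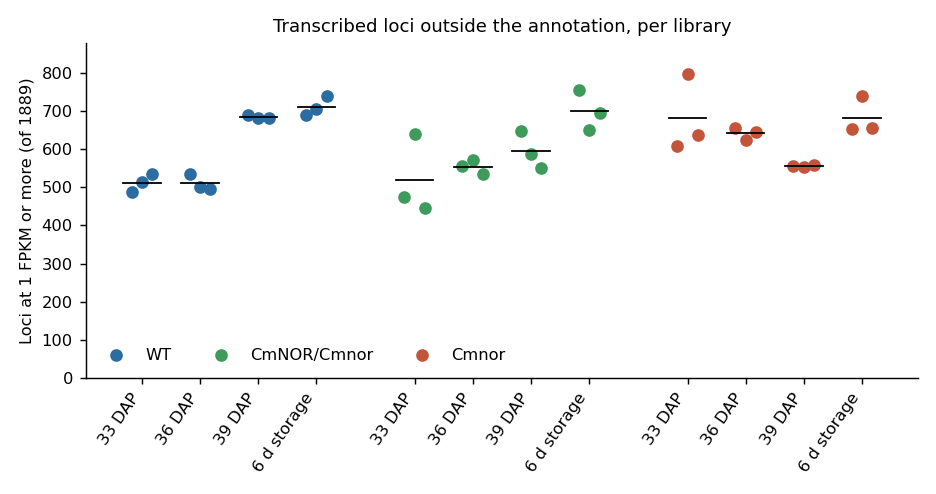
Number of the 1889 loci at 1 FPKM or more in each of the 36 libraries (points) by genotype and stage, with group means as lines. WT libraries at 39 DAP and after storage (681 to 739) lie above all WT libraries at 33 and 36 DAP (487 to 536).

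A few loci were very abundant. The highest matched polyubiquitin, the precursor of the ubiquitin that marks proteins for breakdown, on chromosome 00 from 36621066 to 36621291, 226 bp that took a mean of 3221 FPKM. It was lowest in *Cmnor* at 33 DAP, with 2348, 1964 and 2428 FPKM, and had its highest mean in *CmNOR/Cmnor* at the same stage, with 3921, 3532 and 4653 FPKM, a range that overlaps WT. A second polyubiquitin locus, on chromosome 12 from 23736405 to 23738237 on the plus strand, had a mean of 1468 FPKM. Its 3 libraries of *Cmnor* at 36 DAP gave 2269, 2239 and 2222 FPKM, more than any other group, and in WT it dropped from 2036, 2071 and 1976 FPKM at 33 DAP to 921, 895 and 914 FPKM at 39 DAP (log2 fold change -1.16 ± 0.08 SE, adjusted p = 1.4e-11). Its neighbour 81 bp away on the other strand, MELO3C002480.2, which matches a xyloglucan endotransglucosylase/hydrolase, an enzyme that cuts and rejoins cell wall xyloglucan, stayed at 2.2 FPKM or less in every library. Another polyubiquitin locus on chromosome 00 from 36008820 to 36009028 had a mean of 710 FPKM. Ubiquitin repeats are nearly identical between genes, so reads could be shared among these loci and the 5 annotated genes described as polyubiquitin.

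The other 2 of the 5 most abundant loci were 1 that matched a frame within ribosomal RNA genes and 1 that moved with it. A group of 3 loci matched proteins read from frames within ribosomal RNA genes (TAR1 and a so-called senescence-associated protein). They lay on chromosome 00 from 32927746 to 32928531, on chromosome 03 from 7386427 to 7389321 and on chromosome 10 from 22609814 to 22610533. The last of these, with a mean of 856 FPKM, is among the 5 most abundant loci. The summed level of the 3 loci in WT was 820 FPKM at 33 DAP, 1300 at 36 DAP, 3369 at 39 DAP and 1092 after storage, a peak at 39 DAP that *CmNOR/Cmnor* (844, 1561, 1168 and 1125 FPKM) did not show. *Cmnor* had 1464, 2373, 2053 and 1927 FPKM, above WT at all stages but 39 DAP. Its libraries at 36 DAP ran from 1717 to 3233 FPKM. The log2 fold change from 33 to 39 DAP in WT was 1.94 to 2.14 for the 3 loci, and at 39 DAP *CmNOR/Cmnor* was lower than WT by 1.47 to 1.67 on the log2 scale. The locus on chromosome 00 from 33512740 to 33513044, with a mean of 990 FPKM, went the same way, at 479, 509 and 587 FPKM in WT at 33 DAP and 2162, 2128 and 1895 FPKM at 39 DAP (log2 fold change 1.98 ± 0.17 SE, adjusted p = 4.5e-10). RNA libraries are usually made so as to leave ribosomal RNA out.

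The main question was how the loci changed in storage, set against fruits of the same picking date at 36 DAP. A locus was called where limma gave an adjusted p under 0.05, adjusted over the 24901 features tested, and values on the scale log2(FPKM + 1) differed by 1 or more either way. In WT 186 loci rose in storage and 25 fell. The rises are 9.86% of the 1886 loci, where 3.99% of all features rose, and the falls are 1.33%, where 4.3% of all features fell (8.29% either way). In *CmNOR/Cmnor* 144 loci rose (7.64%, with 2.76% of all features) and 26 fell (1.38%, with 5.14% of all features, or 7.9% either way). In *Cmnor* 89 loci rose (4.72%, with 5.52% of all features) and 75 fell (3.98%, with 6.61% of all features). The split in *Cmnor* depends on the scale. On log2(FPKM + 0.1) 273 of the 1886 loci rose and 161 fell, where 2415 of all 24901 features rose and 2476 fell. On that scale the loci thus rose more often than all features, unlike on the main scale. By limma voom on recovered fragments 308 loci rose and 161 fell, and the counts over all features are not given here for that fit.

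**Figure D2:**
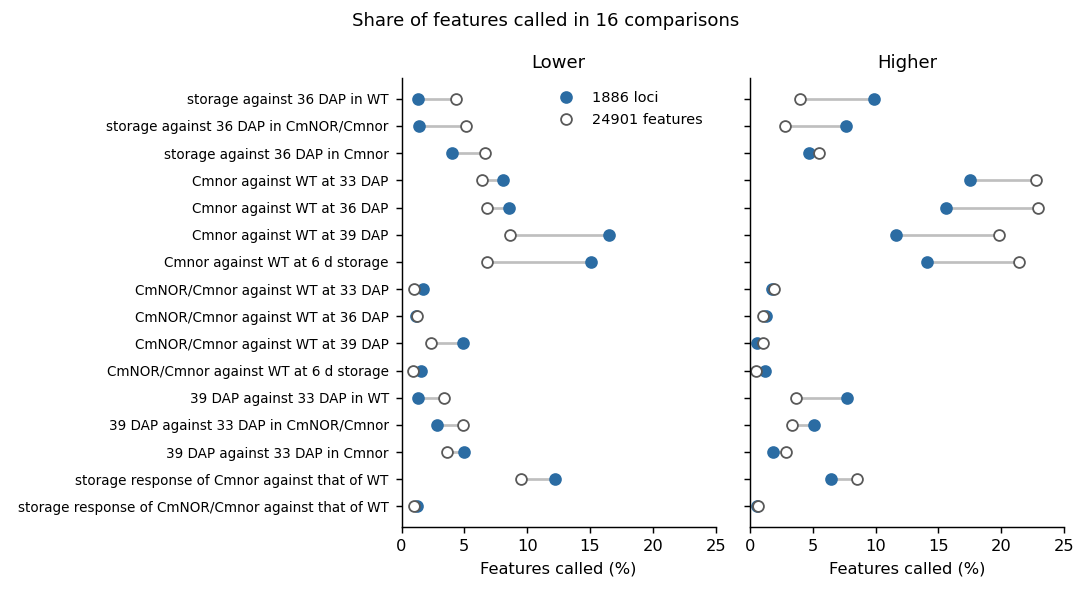
Share of the 1886 loci (filled) and of all 24901 features (open) called lower (left) and higher (right) in each of 16 comparisons, in percent. In storage 9.86% of the loci rose in WT against 3.99% of all features, and at 39 DAP 16.5% of the loci were lower in *Cmnor* than in WT against 8.65% of all features.

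How many loci rose depends on the vine stage that storage is set against. Against 39 DAP 57 loci were higher and 58 lower in stored WT fruits (3.02% and 3.08%, with 2.07% and 3.71% of all features). In *CmNOR/Cmnor* 127 were higher and 26 lower (6.73% and 1.38%, with 2.31% and 3.61% of all features), and in *Cmnor* 156 were higher and 56 lower (8.27% and 2.97%, with 6.16% and 5.08% of all features). In WT, part of the rise in storage was thus also seen on the vine. From 33 to 39 DAP 145 loci rose in WT and 25 fell (7.69% and 1.33%, with 3.67% and 3.35% of all features), and 56 loci rose both on the vine and in storage, 38.6% of the former and 30.1% of the latter. In *CmNOR/Cmnor* 96 rose and 53 fell from 33 to 39 DAP (5.09% and 2.81%, with 3.37% and 4.91% of all features, or 8.28% either way), 31 of the 96 also in storage, and 107 rose and 42 fell with the libraries that stand apart at 33 DAP left out. In *Cmnor* 35 rose and 94 fell (1.86% and 4.98%, with 2.9% and 3.63% of all features), with 44 and 71 when those libraries are left out and 146 falls without replicate 1 at 33 DAP.

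WT and *CmNOR/Cmnor* raised many of the same loci in storage. Rises in both numbered 99, which is 53.2% of those in WT and 68.8% of those in *CmNOR/Cmnor*, and these comparisons share no library. With *Cmnor* the overlap was 6 for each of them. Across the 1886 loci the log2 fold changes of WT and *CmNOR/Cmnor* went with a Pearson r of 0.767 (Spearman rho 0.669), and those of WT and *Cmnor* with 0.09 (0.113). Over all features the same values were 0.814 and 0.095 (Pearson). These are descriptions across loci that share their libraries. In all genotypes 3 loci rose in storage and 2 fell (0.159% and 0.106%, with 0.273% and 0.63% of all features).

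**Figure D3:**
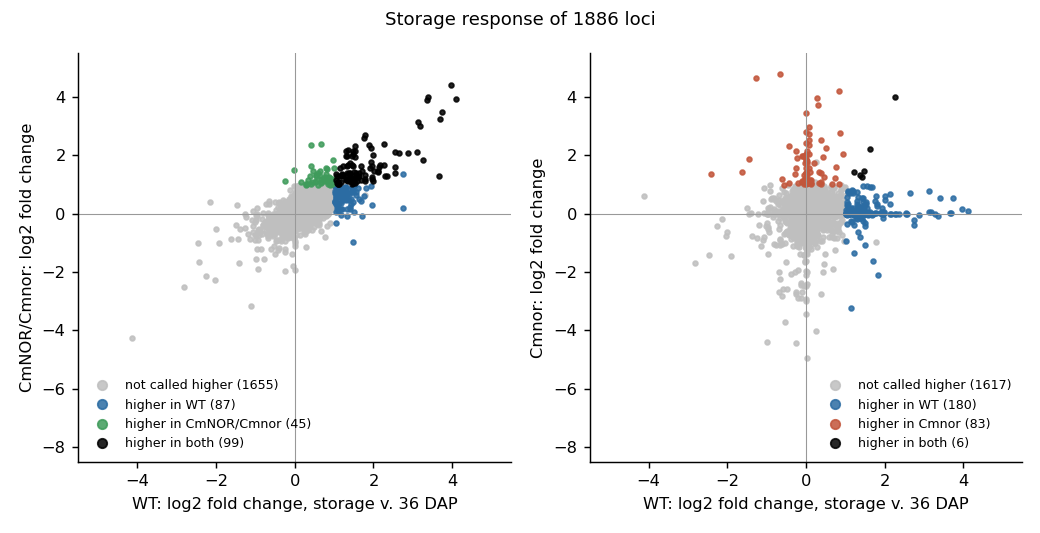
Log2 fold change of each of 1886 loci between 6 d storage and 36 DAP in WT (x axis) and in *CmNOR/Cmnor* (left) or *Cmnor* (right), coloured by where the locus was called higher. Rises shared by WT and *CmNOR/Cmnor* number 99 and lie along the diagonal, and rises shared by WT and *Cmnor* number 6.

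The 99 loci that rose in both WT and *CmNOR/Cmnor* were nearly silent in *Cmnor*. Their summed level in WT went from 301.8 ± 54.2 FPKM (SD, n = 3) at 36 DAP to 1443 ± 71.8 FPKM in storage and in *CmNOR/Cmnor* from 449.3 ± 38.3 to 1694 ± 287 FPKM, whereas in *Cmnor* it was 29.76 ± 5.35 FPKM and 80.88 ± 33.8 FPKM. The number at 1 FPKM or more in stored *Cmnor* fruits was 11, 19 and 14 of 99, with replicate 2 the highest. These loci were chosen by the storage comparisons, so the levels above are a description. Of the 99, 35 (35.4%) carried words for mobile elements, against 25.4% of all the loci, 66 (66.7%) were stranded and the median span was 1709 bp.

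Among the largest rises in WT was a pair of loci on chromosome 07. The first, from 10079373 to 10082023 on the minus strand, matched a hypothetical melon protein and lay 3751 bp from the nearest gene. It had 3.52, 2.93 and 3.12 FPKM in WT at 36 DAP and 64.1, 78.2 and 71.8 FPKM after storage, a 22.4-fold difference of the means (log2 fold change 4.11 ± 0.13 SE, adjusted p = 7.9e-19). In *CmNOR/Cmnor* it went from 0.373, 0.323 and 0.509 to 22.7, 16.4 and 23.1 FPKM (log2 fold change 3.94 ± 0.13 SE, adjusted p = 1.4e-18), while every *Cmnor* library stayed at 0.0968 FPKM or less. WT thus exceeded *CmNOR/Cmnor* at both stages without overlap. The second, 354 bp further on from 10082378 to 10084083, matched a flocculation protein FLO11-like, a name from yeast cell wall proteins. It went from 0.951, 0.859 and 0.68 to 15.1, 17.8 and 17.1 FPKM in WT and reached 3.25, 2.43 and 3.08 FPKM in stored *CmNOR/Cmnor* (log2 fold change between these genotypes in storage -2.17 ± 0.10 SE, adjusted p = 1.5e-14). In stored *Cmnor* fruits no fragment was found, which makes the level at least 335-fold lower than in WT (floor of 3 fragments per library).

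Mobile element loci were among the largest rises. The locus on chromosome 08 from 10431712 to 10434659, which matched a Ty3-gypsy retrotransposon protein, had 0.0988, 0.134 and 0.136 FPKM in WT at 36 DAP. After storage WT had 16, 16.5 and 17.2 FPKM (log2 fold change from 36 DAP 3.97 ± 0.12 SE, adjusted p = 1.2e-19), and the libraries from 39 DAP, with 1.32, 1.22 and 1.88 FPKM, lay between. *CmNOR/Cmnor* reached 24.4, 17.7 and 26.1 FPKM in storage (4.40 ± 0.12 SE, adjusted p = 2.2e-20), and the 3 stored *Cmnor* libraries had 0.0308, 0.326 and 0.0276 FPKM. Neither WT nor *CmNOR/Cmnor* overlapped *Cmnor*, whose highest library was replicate 2. The locus on chromosome 10 from 20775775 to 20784582 on the plus strand matched a CACTA en-spm transposon protein, the transposase family of the maize En/Spm element. It went from 0.516, 0.567 and 0.403 to 16.6, 20.5 and 20.3 FPKM in WT (3.75 ± 0.21 SE, adjusted p = 8.2e-14) and from 1.48, 1.86 and 1.49 to 34.2, 27.0 and 23.6 FPKM in *CmNOR/Cmnor* (3.47 ± 0.21 SE, adjusted p = 3.4e-13). On the vine it fell in WT, from 2.14, 3.15 and 2.98 FPKM at 33 DAP to 0.882, 0.809 and 0.742 FPKM at 39 DAP (-1.04 ± 0.21 SE, adjusted p = 0.00024).

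Another mobile element locus differed between WT and *CmNOR/Cmnor*. It lay on chromosome 01 from 25436332 to 25438107 and matched a pol protein, the polyprotein of retrotransposons that holds the reverse transcriptase. In WT it had 1.39, 0.807 and 0.859 FPKM at 36 DAP and 21.8, 26.7 and 24.7 FPKM after storage (log2 fold change 3.66 ± 0.20 SE, adjusted p = 5.1e-14). In stored *CmNOR/Cmnor* it had 2.81, 2.52 and 2.95 FPKM, which is 8.84-fold lower (log2 fold change -2.75 ± 0.20 SE, adjusted p = 3e-10). The storage response itself was smaller in *CmNOR/Cmnor* (difference of log2 fold changes -2.36 ± 0.29 SE, adjusted p = 3.6e-06). In *Cmnor* 7 of 12 libraries had no fragment and the others had at most 0.0825 FPKM.

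Further loci rose in both. On chromosome 10 from 18392403 to 18394015 an uncharacterized locus went from 0.464, 1.05 and 0.273 to 17.9, 21.8 and 18 FPKM in WT (3.69 ± 0.21 SE, adjusted p = 6.6e-14). On chromosome 07 from 9452543 to 9455624 the rise in *CmNOR/Cmnor* was from 0.949, 0.962 and 0.699 to 35.3, 23.2 and 29.7 FPKM (4.01 ± 0.24 SE, adjusted p = 1.5e-13). On chromosome 09 from 7636438 to 7638201 a locus with no description went from 0.653, 1.03 and 1.22 to 32.3, 24.4 and 27.6 FPKM in *CmNOR/Cmnor* (3.89 ± 0.25 SE, adjusted p = 1.1e-12). All 3 stood under 2 FPKM in every *Cmnor* library.

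**Figure D4:**
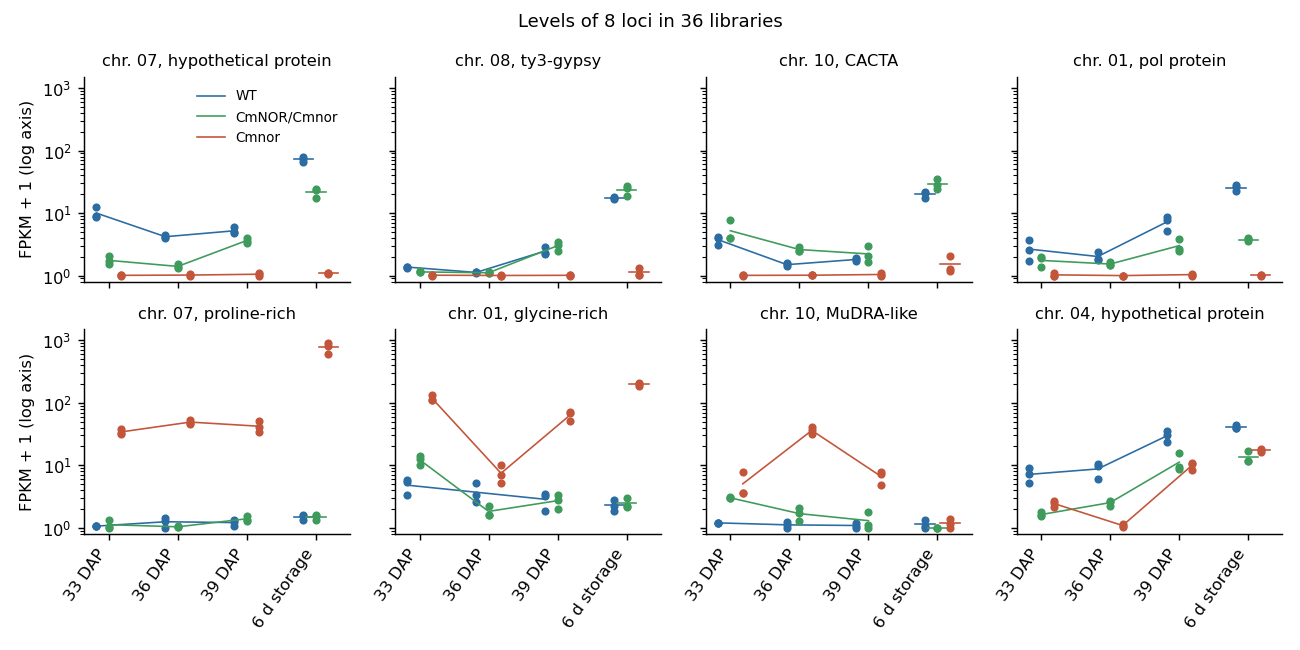
FPKM + 1 (log axis) of 8 loci in the 36 libraries (points), with lines through the group means on the vine and a bar at the mean in storage. The loci of the upper row reach 16 FPKM or more in stored WT fruits and stay under 1.1 FPKM in *Cmnor*, and the first 3 of the lower row are highest in *Cmnor*.

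Falls in storage were fewer. The largest in WT and in *CmNOR/Cmnor* was on chromosome 11 from 378243 to 378773 on the plus strand, next to the annotated gene MELO3C034565.2 on the same strand with no base between them. It dropped from 76.9, 120.4 and 105.0 to 5.77, 4.97 and 3.64 FPKM in WT (log2 fold change -4.13 ± 0.25 SE, adjusted p = 4.2e-13) and from 80.9, 71.6 and 81.5 to 5.28, 3.0 and 1.81 FPKM in *CmNOR/Cmnor* (-4.25 ± 0.25 SE, adjusted p = 2.1e-13). In *Cmnor* it had 33.0, 18.7 and 14.8 FPKM at 36 DAP and 30.2, 37.3 and 30.1 FPKM after storage, groups that overlap. The adjoining gene, which has no description, was at 2.28 FPKM or less in every library and was also called lower in stored WT fruits (-1.22 ± 0.30 SE, adjusted p = 0.0015). The locus is called apart from the gene in the table, and whether both are 1 transcript was not tested.

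A pair of loci 439 bp apart on chromosome 09 also fell. The one from 20603764 to 20604019 matched the E3 ubiquitin ligase RHA2B, which in Arabidopsis takes part in abscisic acid signalling. It went from 28.1, 27.9 and 31.9 to 5.07, 4.58 and 3.89 FPKM in WT (-2.46 ± 0.14 SE, adjusted p = 8.9e-14) and from 116.0, 85.3 and 132.0 to 35.5, 44.1 and 42.8 FPKM in *Cmnor* (-1.41 ± 0.14 SE, adjusted p = 2.4e-09). The one from 20603005 to 20603324 fell in all genotypes, by 1.92 in WT, 1.01 in *CmNOR/Cmnor* and 1.44 in *Cmnor* on the log2 scale. In *CmNOR/Cmnor* that call is lost without replicate 3 at 36 DAP (-0.89), without replicate 2 (-0.99) or 3 (-0.81) of the storage group and with scaling to the same median (-0.89). In *Cmnor* it is lost against 39 DAP, where the difference is 0.12. The other locus that fell in all was on chromosome 07 from 11893835 to 11894315, with 14.5, 21.3 and 16 FPKM in WT at 36 DAP and 1.65, 0.915 and 2.26 FPKM after storage (-2.83 ± 0.25 SE, adjusted p = 6.1e-10). The smaller fall of *Cmnor*, -1.69 ± 0.25, differed from that of WT by 1.14 ± 0.36 SE (adjusted p = 0.01).

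*Cmnor* fruits raised a different set in storage. The 89 loci had a median of their group means of 0.544 FPKM in *Cmnor* at 36 DAP and 4.03 FPKM after storage, and of 0.328 and 0.494 FPKM in WT. Their median span was 594 bp, and 21 carried words for mobile elements (23.6%). The highest level was reached on chromosome 07 from 5645044 to 5646802 on the minus strand, at a locus that matched a 36.4 kDa proline-rich protein, one of a family of structural proteins of the plant cell wall. It had 45.6, 47.0 and 51.9 FPKM in *Cmnor* at 36 DAP and 802.0, 609.6 and 914.0 FPKM after storage (log2 fold change 3.96 ± 0.15 SE, adjusted p = 5.4e-18), while no WT library passed 0.582 FPKM and no *CmNOR/Cmnor* library 0.599 FPKM. Against stored WT fruits its log2 fold change was 9.01 ± 0.15 SE (adjusted p = 4.9e-26).

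The largest rise was on chromosome 01 from 3678605 to 3679357, at a locus that matched a glycine-rich protein, another family with cell wall members. It went from 9.23, 5.91 and 4.25 to 204.0, 185.0 and 202.0 FPKM in *Cmnor* (log2 fold change 4.78 ± 0.27 SE, adjusted p = 3.5e-14). It was also high at 33 DAP in *Cmnor*, with 109.0, 134.0 and 109.0 FPKM, so 36 DAP was its lowest stage, and it was under 14 FPKM in all WT and *CmNOR/Cmnor* libraries. On chromosome 12 from 2346163 to 2346369 no *Cmnor* library had a fragment at 36 or 39 DAP and the stored ones had 27.1, 22.3 and 23.2 FPKM, at least 52.4-fold more than at 36 DAP. That locus was seen in some groups and at 0 in all libraries of others, with 9.36, 7.33 and 8.16 FPKM in *Cmnor* at 33 DAP, 1.81, 2.18 and 0.58 FPKM in WT at 36 DAP and 0 in the other 9 WT libraries. On chromosome 05 from 6892223 to 6894859 the rise was from 0.13, 0.0747 and 0.129 to 21.1, 17.2 and 21.0 FPKM (4.22 ± 0.10 SE, adjusted p = 5.1e-22).

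Of the 3 loci that rose in all genotypes, the one with the largest rise lay on chromosome 04 from 29529624 to 29532866. It went from 9.34, 8.79 and 5.11 to 42.7, 38.5 and 37.9 FPKM in WT (log2 fold change 2.25 ± 0.21 SE), from 1.71, 1.62 and 1.26 to 16, 10.6 and 10.8 FPKM in *CmNOR/Cmnor* (2.39 ± 0.21 SE) and from 0.0406, 0.155 and 0.0668 to 17.0, 15.6 and 16.5 FPKM in *Cmnor* (4.0 ± 0.21 SE, largest adjusted p = 1.3e-09). It had already risen on the vine, and against 39 DAP the differences are 0.48, 0.29 and 0.82 and none is called. The other 2 were on chromosome 00, from 25057440 to 25059128 and from 11032983 to 11034047. They stood at 31.8 to 45.7 and 33.8 to 34.6 FPKM in stored WT fruits and at 3.8 to 7.88 and 6.01 to 16.3 FPKM in stored *Cmnor* fruits. The call is lost in *CmNOR/Cmnor* without replicate 1 of the storage group for both (log2 fold changes 0.75 and 0.93), without replicate 1 at 36 DAP for the former (0.83), and in *Cmnor* without replicate 2 of the storage group for the latter (0.92). Against 39 DAP their rises in WT were 0.45 and 0.26, short of a call.

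The 75 loci that fell in stored *Cmnor* fruits had a median of their group means of 7.27 FPKM in *Cmnor* at 36 DAP and 0.967 FPKM after storage, and 0.335 FPKM in WT at 36 DAP. The largest fall was on chromosome 10 from 8361802 to 8362378, at a locus that matched a MuDRA-like transposase, the enzyme of the maize MuDR element. It had 30.2, 39.5 and 35.9 FPKM in *Cmnor* at 36 DAP and 0, 0.39 and 0.154 FPKM after storage (-4.94 ± 0.24 SE, adjusted p = 6.3e-16), and at most 0.313 FPKM in WT. A second MuDRA-like locus on chromosome 00 from 16171312 to 16172021 fell from 36.2, 44.8 and 49.1 to 0.853, 1.51 and 0.955 FPKM (-4.40 ± 0.20 SE, adjusted p = 2.1e-16). A locus on chromosome 06 from 18500822 to 18501621 went from 19.6, 23.1 and 23.2 FPKM to 0.172 FPKM or less (-4.42 ± 0.36 SE, adjusted p = 3.6e-11). In *Cmnor* all 3 were highest at 36 DAP, with 3.81 to 11.5 FPKM at 39 DAP and 2.6 to 11.7 FPKM at 33 DAP.

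The storage responses were also set against each other as signed differences, mutant minus WT, which are negative where the mutant rose less and also where it fell more. For *Cmnor* the difference was called positive at 121 loci and negative at 230 (6.42% and 12.2%, with 8.55% and 9.51% of all features). Of the 75 loci that fell in stored *Cmnor* fruits 60 are among the 230. The 75 were chosen by the *Cmnor* storage difference that is part of this comparison, so that count is a description. For *CmNOR/Cmnor* it was positive at 11 loci and negative at 24 (0.583% and 1.27%, with 0.643% and 0.992% of all features), and without replicate 2 of stored *CmNOR/Cmnor* the positive ones numbered 21.

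Rises in storage were most frequent among long loci in WT and *CmNOR/Cmnor*. Of the longest tertile (1162 to 76009 bp) 109 of 629 rose in WT (17.3%), of the middle tertile 44 of 628 (7.0%) and of the shortest tertile (201 to 469 bp) 33 of 629 (5.2%). In *CmNOR/Cmnor* the shares were 13.8%, 4.8% and 4.3%, and in *Cmnor* 3.8%, 5.4% and 4.9%. Longer loci also had a higher level, with a median mean FPKM of 1.08, 0.544 and 0.346 from long to short, and low loci can hardly reach the threshold on the scale used. Among the 688 loci with a mean of at least 1 FPKM the shares in WT were 25%, 10.7% and 12.3% from long to short, at median levels of 3.02, 2.56 and 3.33 FPKM. Stranded loci rose more often in WT, 111 of 864 (12.8%), than loci with no strand, 75 of 1022 (7.3%).

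By chromosome, WT rises made up 4.8% (chromosome 06) to 18.7% (chromosome 08, 20 of 107) of the loci, with 7.7% on chromosome 00 and 11.3% on the placed chromosomes together. By distance, 8 of 173 loci within 1 kb of a gene rose in WT (4.6%), 63 of 522 at 1 to 5 kb (12.1%) and 115 of 1190 beyond 5 kb (9.7%). The differences between these classes were not tested.

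**Figure D5:**
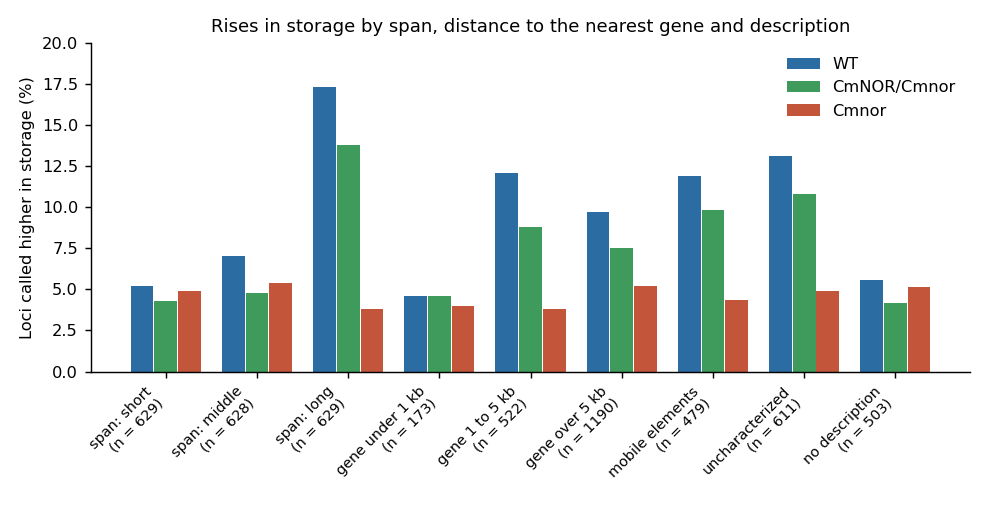
Share of loci called higher in 6 d storage than at 36 DAP, in percent, by span tertile (201 to 469, 470 to 1161 and 1162 to 76009 bp), distance to the nearest annotated gene and description, for 3 genotypes; n is the number of loci tested. The longest tertile reached 17.3% in WT and 13.8% in *CmNOR/Cmnor* but 3.8% in *Cmnor*.

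The change of a locus and that of its nearest gene were weakly correlated. Over 1858 pairs of a locus and its nearest tested gene, the Pearson r of the storage log2 fold changes was 0.121 in WT, 0.126 in *CmNOR/Cmnor* and 0.107 in *Cmnor*. Within 1 kb (174 pairs) it was 0.316, 0.251 and 0.4, and beyond 5 kb (1175 pairs) 0.104, 0.086 and 0.062. Between *Cmnor* and WT at 36 DAP it was 0.388 within 1 kb and 0.015 beyond 5 kb. The points of such a correlation share their libraries. Of 182 loci that rose in stored WT fruits and have a tested nearest gene, that gene rose in 17 (9.34%, with 3.99% of all features) and fell in 7 (3.85%, with 4.3%). In *CmNOR/Cmnor* it rose in 10 of 142 (7.04%, with 2.76% of all features) and in *Cmnor* in 4 of 88 (4.55%, with 5.52%). Loci within 1 kb of each other went together more, with an r of 0.59 in WT, 0.61 in *CmNOR/Cmnor* and 0.54 in *Cmnor* over 84 pairs.

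A single locus overlaps an annotated gene. It spans chromosome 01 from 2361070 to 2375260 on the minus strand and covers MELO3C018720.2 on the plus strand, which matches the F-box protein MAX2, the part of the strigolactone and karrikin signalling pathways that selects proteins for breakdown. In *CmNOR/Cmnor* the locus went from 1.17, 1.15 and 1.34 FPKM at 36 DAP to 6.78, 4.17 and 6.96 FPKM after storage (1.63 ± 0.18 SE, adjusted p = 3.2e-08), and the gene on the other strand from 119.0, 120.1 and 126.0 to 32, 43.5 and 41.6 FPKM (-1.63 ± 0.13 SE, adjusted p = 8.1e-11). In WT the gene also fell, by 1.39 on the log2 scale, and the locus had 0.972, 0.642 and 0.479 FPKM at 36 DAP and 1.22, 1.3 and 1.19 FPKM after storage, short of a call. The sources used here do not say whether the counting used strand, and without it reads of the gene and of the locus could not be told apart where they overlap.

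Of 479 mobile element loci tested, 57 rose and 6 fell in stored WT fruits (11.9% and 1.25%, beside 9.86% and 1.33% of all the loci). In *CmNOR/Cmnor* 47 rose and 3 fell (9.81% and 0.63%, beside 7.64% and 1.38%), and in *Cmnor* 21 rose and 8 fell (4.38% and 1.67%, beside 4.72% and 3.98%). Of 728 annotated genes with the same words 14 rose and 3 fell in WT (1.92% and 0.41%), 18 and 3 in *CmNOR/Cmnor* and 10 and 4 in *Cmnor*. Annotated genes with these words were low, with a median of 0 FPKM in every WT library. The mobile element loci had medians of 0.267 to 0.609 FPKM there, and low features can hardly reach the threshold on the scale used. From 33 to 39 DAP 44 of the loci rose and 4 fell in WT (9.19% and 0.84%, beside 7.69% and 1.33% of all the loci), while 3 rose and 27 fell in *Cmnor* (0.63% and 5.64%, beside 1.86% and 4.98%). The differences between these shares and those of all the loci were not tested. The summed level of the mobile element loci in WT was 748.3 FPKM at 33 DAP, 878.6 at 36 DAP, 1399 at 39 DAP and 1375 after storage. In *CmNOR/Cmnor* it was 663.1 (libraries 576.9, 876.2 and 536.3), 928.6, 999.4 and 1534 FPKM and in *Cmnor* 647.5, 711.9, 527 and 749.8 FPKM. The genotypes were closer at 33 DAP than at 39 DAP, when the lowest WT library had 1339.8 FPKM and the highest *Cmnor* library 555.7 FPKM. Elements of 1 family are near copies of each other, so reads could be shared among loci and the level of a single copy is uncertain.

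Of the other descriptions, loci called uncharacterized rose in WT storage in 80 of 611 cases and fell in 11 (13.1% and 1.8%), and those with no description rose in 28 of 503 and fell in 5 (5.57% and 0.99%), beside 9.86% and 1.33% of all the loci. The 32 kinase loci and 14 ribosomal protein loci had no call in stored WT fruits. Of the 50 transcription factor loci 1 rose and 2 fell in WT (2.0% and 4.0%), and 2 rose and 6 fell in *Cmnor* (4.0% and 12%, beside 4.72% and 3.98% of all the loci). Of the 13 heat shock loci 2 rose and 2 fell in WT (15.4% each), and of the 10 defence loci none was called in WT or *Cmnor* and 1 rose in *CmNOR/Cmnor*. The differences of these classes from all the loci were not tested.

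Between genotypes, more loci were lower in *Cmnor* than in WT as ripening went on. At 33 DAP 330 loci were higher in *Cmnor* and 152 lower (17.5% and 8.06%, with 22.8% and 6.37% of all features), and without replicate 2 of both mutant groups 263 were higher and 152 lower. At 36 DAP 295 were higher and 162 lower (15.6% and 8.59%, with 22.9% and 6.79% of all features). At 39 DAP 218 were higher and 311 lower (11.6% and 16.5%, with 19.8% and 8.65% of all features), and in storage 266 were higher and 285 lower (14.1% and 15.1%, with 21.4% and 6.81% of all features). The split depends on the scaling, since the median log2 fold change of all features between *Cmnor* and WT was 0.21 at 33 DAP, 0.17 at 36 DAP, 0.06 at 39 DAP and 0.14 in storage. With libraries scaled to the same median the counts were 192 higher and 184 lower at 33 DAP (10.2% and 9.76%, with 13.3% and 11.2% of all features) and 177 and 201 at 36 DAP (9.38% and 10.7%, with 13.6% and 11.9%). They were 142 and 324 at 39 DAP (7.53% and 17.2%, with 14.4% and 12.5% of all features) and 160 and 327 in storage (8.48% and 17.3%, with 12.9% and 12.4%). At 39 DAP and in storage the lower loci outnumbered the higher ones under both scalings, while of all features more were higher than lower.

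At all 4 stages 94 loci were lower in *Cmnor* and 102 higher (4.98% and 5.41%, with 2.94% and 10.5% of all features). The 94 had a median span of 1740 bp, and 29 (30.9%) carried words for mobile elements. The 102 had a median span of 750 bp, and 6 (5.9%) did.

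The largest difference at 36 DAP and in storage, among loci lower in *Cmnor*, was on chromosome 05 from 7548234 to 7553338 on the plus strand, a hypothetical protein locus of 5105 bp with no intron by its FPKM steps. It had 89.5, 85.2 and 70.1 FPKM in WT at 36 DAP, 140.5, 172.0 and 166.0 FPKM in stored WT fruits and 0.184, 0.387 and 0.478 FPKM in stored *Cmnor* fruits (log2 fold change in storage -6.90 ± 0.14 SE, adjusted p = 5.9e-25). *CmNOR/Cmnor* lay between them, with 83.5, 71.1 and 73.1 FPKM in storage and 3.97, 6.9 and 4.96 FPKM at 33 DAP, where WT had 30.2, 37.5 and 42.0 FPKM. On chromosome 11 from 6161117 to 6162939 a locus with no description had 82.3, 105.0 and 87.0 FPKM in WT at 36 DAP and 0.417, 0.359 and 0.446 FPKM in *Cmnor* (-6.03 ± 0.16 SE, adjusted p = 2.2e-22), and it rose on the vine in both WT and *CmNOR/Cmnor* to 294.0, 302.0 and 341.0 and 170.4, 155.0 and 153.0 FPKM at 39 DAP.

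A further 3 loci were far lower in *Cmnor*. On chromosome 01 from 25404384 to 25405776, 30555 bp before the pol protein locus, WT had 45.7, 88.9 and 44.1 FPKM at 36 DAP and *Cmnor* 0.319, 1.22 and 0.306 FPKM (-5.20 ± 0.31 SE, adjusted p = 1.9e-14). On chromosome 01 from 22743080 to 22744536 stored WT fruits had 170.0, 193.0 and 164.0 FPKM and stored *Cmnor* fruits 0.291, 1.94 and 1.23 FPKM (-6.43 ± 0.25 SE, adjusted p = 1.2e-18). On chromosome 07 from 12877094 to 12880423 the storage values were 166.0, 142.0 and 124.0 against 0.23, 2.08 and 0.676 FPKM (-6.28 ± 0.20 SE, adjusted p = 2.1e-20). Replicate 2 was the highest of the stored *Cmnor* libraries at the last 2 of these loci.

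Loci higher in *Cmnor* were led by the proline-rich locus on chromosome 07, with a log2 fold change of 5.31 ± 0.15 SE at 36 DAP (adjusted p = 1.8e-21), and by the MuDRA-like locus on chromosome 10 (5.02 ± 0.24 SE, adjusted p = 1e-16). A locus on chromosome 00 from 28424231 to 28424778 had 29.1, 38.1 and 26.1 FPKM in *Cmnor* at 36 DAP and no fragment in WT, at least 123-fold more. At 33 DAP it showed the library that stands apart, with 6.5, 77.6 and 6.22 FPKM. In storage a locus with no description on chromosome 12 from 22167073 to 22167810 had 57.8, 94.2 and 56.3 FPKM in *Cmnor* and 0.0663, 0.0674 and 0.0555 FPKM in WT (6.01 ± 0.21 SE, adjusted p = 1.7e-19). WT had no fragment of it at any vine stage.

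*CmNOR/Cmnor* differed from WT at far fewer loci. At 33 DAP 33 were higher and 32 lower (1.75% and 1.7%, with 1.88% and 0.98% of all features), with 25 and 37 without replicate 2 of both mutant groups, and 61 higher without replicate 3 of *CmNOR/Cmnor*. At 36 DAP 24 were higher and 22 lower (1.27% and 1.17%, with 1.06% and 1.22% of all features). At 39 DAP 11 were higher and 92 lower (0.583% and 4.88%, with 1.04% and 2.38% of all features, or 3.41% either way). In storage 22 were higher and 30 lower (1.17% and 1.59%, with 0.454% and 0.904% of all features), with 44 higher when replicate 2 of stored *CmNOR/Cmnor* is left out. Higher loci outnumbered lower ones there with scaling to the same median (37 and 26), on log2(FPKM + 0.1) (77 and 59) and by limma voom (69 and 58). On log2(FPKM + 0.1) 300 of all 24901 features were higher and 554 lower. For the scaling and limma voom the counts over all features are not given here.

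At 36 DAP the loci lower in *CmNOR/Cmnor* included those on chromosome 12 from 21201481 to 21202200 and on chromosome 07 from 21583852 to 21584781. The former had 10.9, 9.15 and 11.4 FPKM in WT and 0.726, 1.02 and 2.42 FPKM in *CmNOR/Cmnor* (log2 fold change -2.32 ± 0.27 SE, adjusted p = 3.5e-07), with 3.15, 2.92 and 1.18 FPKM in *Cmnor*. The latter had 30.4, 29.3 and 26.8 FPKM in WT and 7.14, 8.59 and 7.55 FPKM in *CmNOR/Cmnor* (-1.77 ± 0.15 SE, adjusted p = 3.8e-09). At 33 DAP both were lower in the heterozygote than in either homozygote, with 0.312, 0.77 and 0.306 FPKM against 6.04, 5.93 and 7.08 FPKM in WT and 5.0, 7.55 and 4.37 FPKM in *Cmnor* for the former.

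Higher in *CmNOR/Cmnor* at 36 DAP were a locus on chromosome 00 from 16821793 to 16822796, which matched beta-amyrin 11-oxidase, a cytochrome P450 of triterpene synthesis in liquorice, and a transposase locus on chromosome 08 from 32954586 to 32961297. The P450 locus had 15.9, 7.95 and 12 FPKM in WT and 47.4, 52.3 and 73.0 FPKM in the heterozygote (2.20 ± 0.42 SE, adjusted p = 0.00042). It declined from 33 DAP into storage in both, from 90.4, 70.6 and 54.4 to 3.51, 5.03 and 6.3 FPKM in WT and from 201.0, 349.0 and 68.2 to 5.38, 6.7 and 4.36 FPKM in *CmNOR/Cmnor*. The transposase locus had 7.07, 7.09 and 8.42 FPKM against 1.76, 0.642 and 1.36 FPKM in WT (1.95 ± 0.25 SE, adjusted p = 2.5e-06) and 12.7, 12.4 and 13.6 FPKM in *Cmnor*. The gene 677 bp away from it on the other strand, MELO3C033193.2, was called in no comparison.

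The largest differences of stored *CmNOR/Cmnor* fruits over WT were at 2 loci. One on chromosome 12 from 20608471 to 20610802 stood at 0.335, 0.358 and 0.308 FPKM in WT, where *CmNOR/Cmnor* had 6.48, 3.07 and 8.62 FPKM (2.32 ± 0.17 SE, adjusted p = 2.1e-10) and *Cmnor* no fragment. The other, on chromosome 08 from 28564803 to 28565074, was ordered WT, *CmNOR/Cmnor* and *Cmnor* from low to high. It had 0.265, 0.405 and 0.444 FPKM in WT, 5.57, 3.54 and 3.53 FPKM in *CmNOR/Cmnor* (1.91 ± 0.27 SE, adjusted p = 1.6e-05) and 29.7, 31.8 and 36.0 FPKM in *Cmnor* (4.61 ± 0.27 SE, adjusted p = 9.7e-15), and the same order without overlap held at 33, 36 and 39 DAP.

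The extremes of length show how span and transcript differ. The longest locus, 76009 bp on chromosome 00 from 18076710 to 18152718, had an exonic length of 418 bp. Its libraries disagreed within groups, with 0.438, 8.55 and 0.763 FPKM in WT at 39 DAP. The next, on chromosome 05 from 15022605 to 15096565, spanned 73961 bp with an exonic length of 272 bp and matched a defensin-like protein, a small antimicrobial protein. It had 1.72, 3.1 and 2.33 FPKM in stored WT fruits and no fragment in stored *Cmnor* fruits, at least 7.64-fold less. The third, on chromosome 05 from 15278769 to 15346828, was at 1.13 FPKM or less in every library. The shortest loci spanned 201 bp, on chromosomes 06 (from 13078467 and from 21118223) and 08 (from 17975743), and none passed 0.855 FPKM in any library.

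Just 2 loci lay within 2 kb of a gene that the study names. One on chromosome 06 from 28762985 to 28763196, 604 bp from the polygalacturonase gene MELO3C016494.2, had fragments in 1 library, at 0.154 FPKM. Polygalacturonases cut the pectin of softening cell walls. The other, on chromosome 09 from 14557866 to 14560291 on the strand opposite to MELO3C025102.2 and 1003 bp from it, neighbours a phytoene synthase gene, the entry enzyme of carotenoid synthesis. It had 0.411, 0.186 and 0.181 FPKM in WT at 36 DAP and 3.77, 5.39 and 4.72 FPKM in *Cmnor* (2.15 ± 0.19 SE, adjusted p = 5.4e-11), and in stored *Cmnor* fruits it had dropped to 1.48, 1.64 and 1.48 FPKM (-1.14 ± 0.19 SE, adjusted p = 1e-05).

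The loci were also sorted by the group in which they had their highest mean. Of 1397 loci with a group mean of at least 1 FPKM, 187 (13.4%) were highest in stored *CmNOR/Cmnor*, 139 (9.9%) in stored WT and 144 (10.3%) in WT at 39 DAP, against 3.2%, 5.6% and 7.5% of 16699 annotated genes. In *CmNOR/Cmnor* 41 (2.9%) were highest at 39 DAP and 68 (4.9%) at 33 DAP, against 3.1% and 3.6% of the annotated genes. In *Cmnor* 256 (18.3%) were highest at 33 DAP, 168 (12%) at 36 DAP, 117 (8.4%) at 39 DAP and 201 (14.4%) in storage, against 16.9%, 18.8%, 14.4% and 18.5% of the annotated genes. The means of *CmNOR/Cmnor* and *Cmnor* at 33 DAP include the libraries that stand apart. This sorting was not repeated without them, so a highest mean at 33 DAP can rest on a single library. Over the 16 comparisons 1046 loci (55.5%) were called at least once. The same share of all features was not computed, and 29.7% of them were called in *Cmnor* against WT at 36 DAP alone.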

How the data were processed

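The deposited values are FPKM that the authors made from TruSeq libraries aligned with HISAT2 to the Melon (DHL92) genome. The submitters' notes also name TopHat2, StringTie and Cufflinks, without roles, and neither the tool that assembled the loci nor versions, strand setting and filters are stated there. Coordinates are those of the table. No genome was used here, so no sequence is shown. Of 25122 lines 1 was empty. Loci are named by position, as their identifiers are running numbers.

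Limma 3.58.1 in R 4.3.3 was fitted to log2(FPKM + 1) of 36 libraries in 12 groups, with a variance trend and Benjamini-Hochberg adjustment over 24901 features with a fragment. Folds are ratios of mean FPKM, and log2 fold changes understate the change of low loci. Fragments were recovered from FPKM steps, and floors cover counting error only. Nearest genes, distances and exonic lengths were computed from the table in Python 3.11.15. The fit was tested on simulated data with 200 changed features. The members and lists were chosen with earlier results of these data known. Loci were named by rule: per storage comparison the 5 largest rises and 3 largest falls, called, with a mean of at least 1 FPKM in the higher group and no overlap; 3 (*Cmnor*) or 2 (*CmNOR/Cmnor*) each way against WT at 36 DAP and in storage; the 5 highest, 3 longest and 3 shortest; up to 5 called in storage one way in all genotypes; and those within 2 kb of a gene the study names. The ribosomal RNA loci and the overlapping locus were added after their values were seen. Alternatives were log2(FPKM + 0.1), a filter of 1 FPKM in 3 libraries, scaling to the same median, a replicate block, leaving out each library, 39 DAP as baseline, distance limits, and, added after seeing the data, limma voom on recovered fragments, leaving out 2 libraries at 33 DAP and leaving out the ribosomal RNA loci.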

Additional observations from a re-analysis of the deposited data

Results flagged for a closer look

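Differences between genotypes in the storage response, by the interaction of genotype and stage in limma, were found for *Cmnor* against WT at 121 loci (positive difference) and 230 loci (negative difference), and for *CmNOR/Cmnor* against WT at 11 and 24 loci. The values that follow are differences of the log2 fold changes in storage, mutant minus WT, for the loci named by their storage response. The libraries that chose these loci also give the differences, so the values are descriptions.

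For loci that rose in WT and rose less or not at all in *Cmnor* the values were -4.02 for the chromosome 07 locus from 10079373, -3.81 for the Ty3-gypsy locus, -3.66 for the chromosome 10 locus from 18392403, -3.63 for the pol protein locus, -3.43 for the chromosome 09 locus from 7636438, -3.22 for the CACTA locus and -2.84 for the chromosome 07 locus from 9452543. Where *Cmnor* fell further than WT the difference was also negative, at -4.96 for the chromosome 10 MuDRA-like locus, -4.16 for the chromosome 06 locus from 18500822 and -3.41 for the chromosome 00 MuDRA-like locus.

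It was positive where *Cmnor* rose, at 5.92 for the chromosome 12 locus from 2346163, 5.44 for the glycine-rich locus, 3.69 for the proline-rich locus, 3.39 for the chromosome 05 locus from 6892223 and 1.74 for the chromosome 04 locus that rose in all genotypes. Where WT fell, the difference was 4.73 for the chromosome 11 locus, 1.54 for the beta-amyrin 11-oxidase locus, 1.14 for the chromosome 07 locus from 11893835 and 1.05 for the RHA2B locus.

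For *CmNOR/Cmnor* against WT the values were -2.36 for the pol protein locus, -2.06 for the beta-amyrin 11-oxidase locus, -1.71 for the chromosome 06 locus from 18500822, 1.46 for the RHA2B locus and 1.27 for the chromosome 12 locus from 2346163.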

How the results depend on the processing

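Each of 32 counts of loci called higher and lower was recomputed under the alternatives. Limits first: the log2(FPKM + 1) scale damps loci under 1 FPKM, which are most of the loci, and depth limits what can be said of loci with a few fragments. The filter on low values and the replicate block left all 32 counts within 1.5 times, with no call of a named locus lost. The replicate numbers were not taken as pairs, since in no comparison did all 3 same-numbered libraries deviate together (the lowest of the 3 correlations was -0.23 to 0.05), and with the block the counts in WT storage were 186 higher and 25 lower, as without it.

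With log2(FPKM + 0.1) the higher and lower loci in storage were 429 and 78 in WT, 341 and 95 in *CmNOR/Cmnor* and 273 and 161 in *Cmnor*. Of all 24901 features 2185 and 1800, 1512 and 2139, and 2415 and 2476 were called there in the same order. For *Cmnor* against WT the loci were 583 and 435 at 33 DAP, 534 and 414 at 36 DAP, 406 and 666 at 39 DAP and 475 and 545 in storage. All features gave 8099 and 2366, 8012 and 2406, 6881 and 3331, and 7416 and 2554. For *CmNOR/Cmnor* against WT the loci were 89 and 154, 129 and 56, 48 and 204, and 77 and 59 in the same order. All features gave 1043 and 706, 737 and 629, 589 and 1234, and 300 and 554. From 33 to 39 DAP the loci were 391 and 77 in WT, 332 and 149 in *CmNOR/Cmnor* and 86 and 249 in *Cmnor*. All features gave 2009 and 1554 in WT and 1888 and 2312 in *CmNOR/Cmnor*. For the other counts of this paragraph those over all features are not given here. The difference of the storage response from that of WT was positive and negative at 197 and 366 loci in *Cmnor* and at 29 and 42 in *CmNOR/Cmnor*.

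With limma voom on recovered fragments, chosen after seeing the data, the same counts were 393 and 87, 330 and 93, and 308 and 161 in storage, 580 and 483, 519 and 482, 410 and 693, and 476 and 567 for *Cmnor* against WT, 82 and 141, 94 and 61, 44 and 191, and 69 and 58 for *CmNOR/Cmnor* against WT, 386 and 81, 334 and 144, and 94 and 254 from 33 to 39 DAP, and 195 (*Cmnor*) and 17 (*CmNOR/Cmnor*) positive differences of the storage response. Of 24901 features 219 had an assumed length there.

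Scaling to the same median moved 7 of 32 counts by over 1.5 times, namely the higher loci of *Cmnor* against WT (192, 177, 142 and 160 in stage order), the higher loci of *CmNOR/Cmnor* in storage (37), the falls from 33 to 39 DAP in *Cmnor* (52) and the positive differences of the storage response of *CmNOR/Cmnor* (20). With 39 DAP as baseline the storage counts were 57 higher and 58 lower in WT and 156 higher in *Cmnor*, and the fall of the chromosome 09 locus from 20603005 in *Cmnor* turned into a difference of 0.12. The correlation of loci with their nearest gene moved with distance, to 0.316 in WT, 0.251 in *CmNOR/Cmnor* and 0.4 in *Cmnor* within 1 kb and to 0.185 and 0.186 in the latter 2 within 5 kb.

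Leaving out each library in turn moved 4 of 216 counts by over 1.5 times. The ranges were 23 to 61 (higher) for *CmNOR/Cmnor* against WT at 33 DAP, with 61 without its replicate 3, 17 to 44 (higher) in storage, with 44 without its replicate 2, 71 to 146 (lower) from 33 to 39 DAP in *Cmnor*, with 146 without replicate 1 at 33 DAP, and 8 to 21 for the positive differences of the storage response of *CmNOR/Cmnor*, with 21 without replicate 2 of its storage group. In storage the ranges were 179 to 200 higher and 26 to 32 lower in WT, 119 to 170 and 25 to 33 in *CmNOR/Cmnor* and 87 to 109 and 69 to 83 in *Cmnor*. Without replicate 2 of both mutants at 33 DAP, chosen after seeing the data, the counts stayed within 1.5 times, at 263 higher and 152 lower for *Cmnor* against WT at 33 DAP. The cause of the shifts above was not tested.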
